A study of Oryzias latipes with 8 samples.

Results

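NeuroD genes encode basic helix-loop-helix (bHLH) transcription factors that bind DNA together with E proteins and drive neural precursors towards a neuronal fate. They act after proneural factors such as the neurogenins, and Id and Hes proteins oppose them, Id by binding E proteins and Hes by repressing proneural genes. In mouse and frog, Neurod4 (also called NeuroM or Math3) is an early member, found in cells that are leaving the cell cycle, whereas Neurod2 is a late member of differentiating, mostly excitatory, neurons. The values below describe neurod4 (ENSORLG00000007467) and NEUROD2 (1 of 2) (ENSORLG00000003441), 2 of the 16957 genes found in all of the authors' count tables, in sorted cells of the medaka (Oryzias latipes) optic tectum, a midbrain region that receives input from the eye. Both were chosen by symbol from the authors' sheets of changed genes, so their differences between sorts are given as descriptions with no test.

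RNA was sequenced from pools of 30 tecta of 1-month-old fish, dissociated and sorted on a cytometer. The wdr12 GFP-positive cells (n = 3) carry green fluorescent protein (GFP) under the promoter of wdr12, a gene of ribosome biogenesis used here to mark neuroepithelial cells. The wdr12 GFP-negative cells (n = 2) are the other tectal cells of that line, a mixture in which the labels name cycling progenitors, neurons and glia. The ebf3 GFP-positive cells (n = 3) come from another transgenic line, named for the neuronal transcription factor ebf3, in which post-mitotic precursors and neurons carry GFP. The sorts are called wdr12+, wdr12- and ebf3+ cells below. Sort and line differ together in every comparison with ebf3+ cells, so line and cell type cannot be told apart in comparisons with that sort. Nothing in the labels says whether replicates came from separate pools of fish, so p-values measure only the spread between these libraries, which may be technical. In sorted pools like these, fewer cells of a type and less RNA per cell cannot be told apart.

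The libraries held 8511255 to 11580629 counts for wdr12+, 3497101 to 5798458 for wdr12- and 5247836 to 7708019 for ebf3+ cells. All 36 measured cell cycle genes stood higher in every wdr12+ library than in any other library, a pattern of 14.1% of all genes tested and 33.6% of those with a symbol. The gene wdr12 had 99.3, 60.6 and 50.6 CPM in wdr12+, 25.7 and 21.5 CPM in wdr12-, and 24.8, 26.6 and 18.5 CPM in ebf3+ cells. The gene ebf3 averaged 406 ± 148 CPM in wdr12+, 659 ± 3.84 CPM in wdr12- and 2524 ± 240 CPM in ebf3+ cells (SD), so it was read in all 3 sorts. CPM are reads of a gene scaled to a common library total, with TMM factors, and they are not corrected for gene length, so levels are compared between sorts and not between genes.

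neurod4 was highest in the neuroepithelial sort and lowest in that line's GFP-negative cells. It had 152, 117 and 81.4 CPM in wdr12+ cells, 12.2 and 6.53 CPM in wdr12- cells, and 48.4, 39.3 and 40.9 CPM in ebf3+ cells. The 3 sorts did not overlap, with wdr12+ above ebf3+ and ebf3+ above wdr12-, an order held by 429 of 15640 genes tested (2.74%) and by 7.45% of the tested genes with a symbol. The means were 117 ± 35.2, 9.35 ± 4.00 and 42.9 ± 4.82 CPM (SD). On the fitted log2 scale neurod4 was 3.65 ± 0.42 (SE) higher in wdr12+ than in wdr12- cells, a 12.6-fold difference. It was 1.45 ± 0.32 (2.72-fold) higher in wdr12+ than in ebf3+ cells. In wdr12- against ebf3+ cells the log2 difference was -2.20 ± 0.39. Among all 15640 fold changes, the first of these ranked 184th from the highest, the second 2615th from the highest and the third 191st from the lowest.

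The low level of neurod4 in the GFP-negative sort rests on few reads. The 2 libraries held 56 and 38 neurod4 reads, against 633 to 1402 in wdr12+ and 246 to 351 in ebf3+ libraries. For replicate 2 this is 6.55 CPM before TMM scaling, with a 95% exact binomial interval of 4.64 to 9.0, and for replicate 1 it is 16 CPM, with an interval of 12.1 to 20.8. The intervals cover counting error only and do not overlap, so the 2 libraries differed by more than that. Without GFP-negative replicate 1 the log2 difference from wdr12+ cells was 4.16, and without replicate 2 it was 3.26; against ebf3+ cells it was -2.71 and -1.81.

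NEUROD2 (1 of 2) had the reverse distribution among the GFP-positive sorts. It had 55.1, 48.7 and 95 CPM in wdr12+ cells, 66.6 and 103.6 CPM in wdr12- cells, and 689.7, 583 and 904 CPM in ebf3+ cells. Every ebf3+ library stood above every library of the wdr12 line, and the 2 sorts of the wdr12 line overlapped. Libraries of ebf3+ cells lay above all others for 6.46% of genes tested and 12.3% of those with a symbol, and for 3.38% and 4.25% the other sorts overlapped as well. The means were 66.2 ± 25.1, 85.1 ± 26.1 and 726 ± 163 CPM (SD). The gene was 10.96-fold higher in ebf3+ than in wdr12+ cells (log2 fold change of wdr12+ over ebf3+ -3.45 ± 0.35). It was 8.52-fold higher in ebf3+ than in wdr12- cells (log2 -3.09 ± 0.41). Between wdr12+ and wdr12- cells the log2 difference was -0.36 ± 0.36, about the size of its own error. These 3 fold changes ranked 120th, 59th and 5716th from the lowest of all genes tested.

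The authors' deposited sheets hold genes with an absolute log2 fold change of at least 1.00 and an adjusted p of at most about 0.05. The smallest listed value of the 2 genes was that of neurod4 in wdr12+ over ebf3+, at 1.44 with an adjusted p of 0.000402 in the authors' deposited table. The unlisted one was NEUROD2 (1 of 2) in wdr12+ over wdr12-, at -0.43 with an adjusted p of 0.571 in the authors' deposited table.

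**Figure D1:**
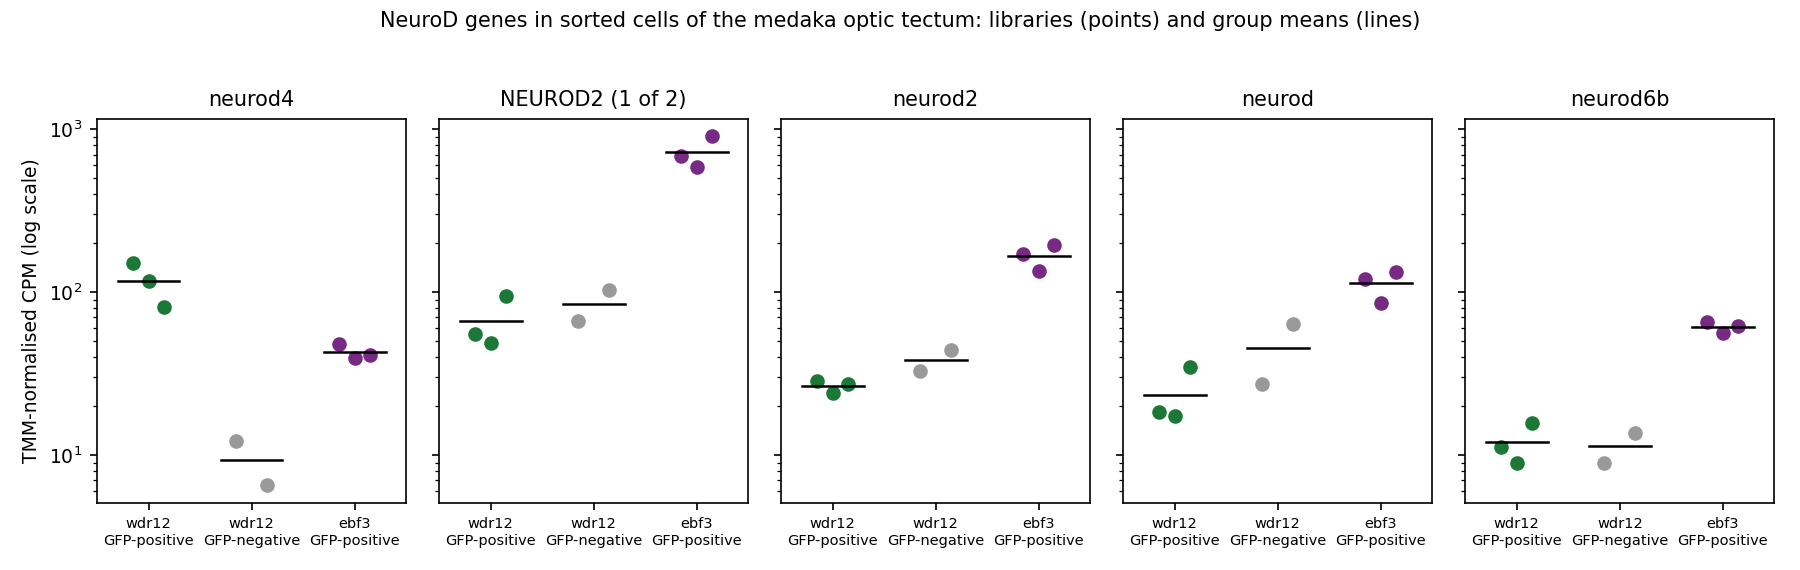
TMM-normalised CPM (log axis) of the 5 NeuroD genes in every library, with wdr12+ left, wdr12- in the middle and ebf3+ right in each panel. Points are libraries and lines are group means; neurod4 is highest in wdr12+ cells (81.4 to 152 CPM), whereas the other 4 genes are highest in ebf3+ cells.

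3 other NeuroD genes had a symbol, and each lay with NEUROD2 (1 of 2) and not with neurod4. Symbols exist only where the authors listed a gene as changed, and a call on one of these genes is not independent evidence. The first is neurod2 (ENSORLG00000008303); whether it is the other copy implied by "1 of 2" is not given in the sources used here, and reads could be split between near-identical copies. It had 28.4, 24.1 and 27.4 CPM in wdr12+, 32.9 and 44.0 CPM in wdr12-, and 171, 135 and 194 CPM in ebf3+ cells. The ebf3+ libraries stood apart from all others, and the wdr12+ libraries lay just under the GFP-negative ones. It fell in wdr12+ against ebf3+ cells by 2.64 ± 0.28 on the log2 scale (adjusted p = 1.8e-05). The difference between the sorts of the wdr12 line did not pass (log2 -0.53 ± 0.30, adjusted p = 0.259).

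The gene listed as neurod (ENSORLG00000010563), read here as neurod1, a factor of endocrine and neuronal differentiation, had 18.3, 17.3 and 34.7 CPM in wdr12+ cells. It had 27.2 and 64.1 CPM in wdr12- cells and 120, 86.1 and 133 CPM in ebf3+ cells. The ebf3+ sort was again above the rest, and the 2 sorts of the wdr12 line overlapped. The log2 fold change of wdr12+ over ebf3+ was -2.27 ± 0.38 (adjusted p = 0.000426), and those of wdr12+ over wdr12- (-0.96 ± 0.40, adjusted p = 0.113) and of wdr12- over ebf3+ (-1.31 ± 0.42, adjusted p = 0.0908) did not pass. Both calls depended on the fit. Without wdr12+ replicate 3 they passed, at log2 -1.40 (adjusted p = 0.0183) and -1.28 (adjusted p = 0.0486), and the second also passed with DESeq2 (adjusted p = 0.0342) and in a fit of only its 2 sorts (adjusted p = 0.0321). Without wdr12- replicate 2 the values were -0.22 and -2.06, and without wdr12- replicate 1 they were -1.45 and -0.82, none of which passed (adjusted p from 0.0583 to 0.906).

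neurod6b (ENSORLG00000017789), a relative of mouse Neurod6, a gene of differentiated excitatory neurons, had 11.2, 9.0 and 15.8 CPM in wdr12+ cells. It had 8.92 and 13.7 CPM in wdr12- cells and 65.7, 55.9 and 61.9 CPM in ebf3+ cells. The sorts of the wdr12 line overlapped, and their log2 difference of 0.08 ± 0.37 (adjusted p = 0.933) changed sign when single libraries were left out (-0.22 to 0.42). It fell in wdr12+ against ebf3+ cells (log2 -2.35 ± 0.33, adjusted p = 0.000124). In wdr12- against ebf3+ cells neurod6b and neurod2 passed too, at log2 -2.43 ± 0.40 (adjusted p = 0.00299) and -2.11 ± 0.32 (adjusted p = 0.00209), and both missed the threshold without GFP-negative replicate 1, at adjusted p = 0.0693 and 0.0511.

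**Figure D2:**
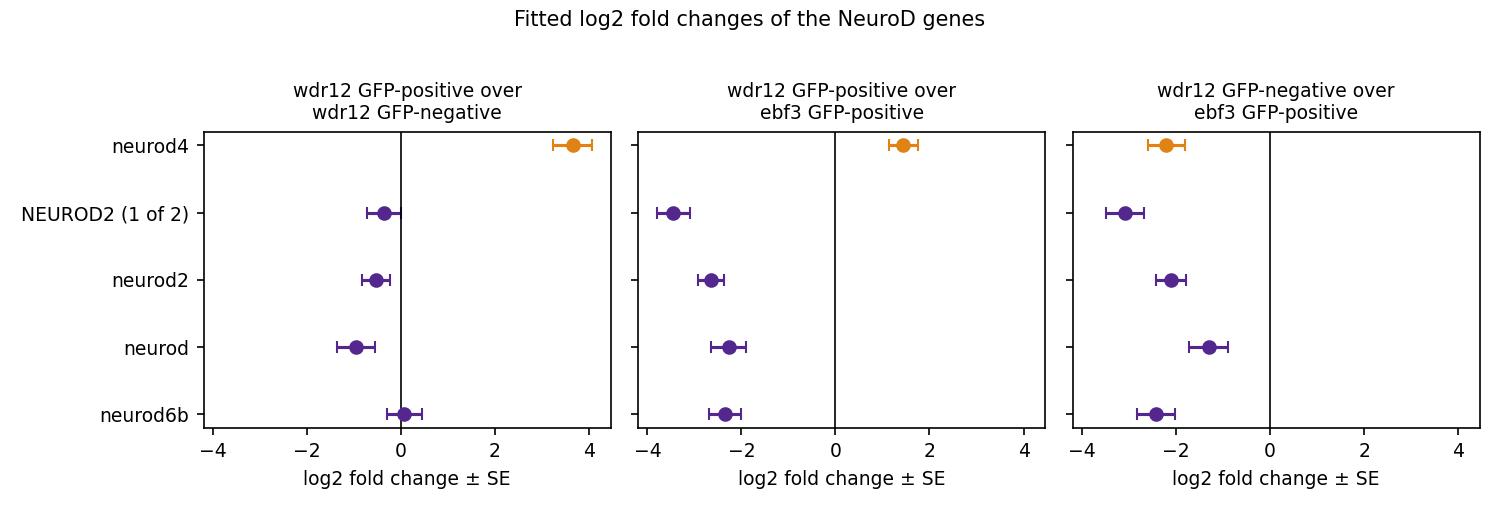
Fitted log2 fold changes with SE of the 5 NeuroD genes (rows) in each comparison (panels); the group named first is on top of the ratio, and 0 is no difference. neurod4 lies right of 0 in the panels with wdr12+ on top (3.65 and 1.45), and the other 4 genes lie between -2.27 and -3.45 in wdr12+ over ebf3+.

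The make-up of NeuroD reads differed between the sorts. Reads of the 5 genes summed to 216 to 265 CPM in wdr12+, 148 to 232 CPM in wdr12- and 899 to 1334 CPM in ebf3+ libraries. Of these reads neurod4 held 57.4%, 54.2% and 32.0% in wdr12+ cells, 8.25% and 2.81% in wdr12- cells, and 4.42%, 4.37% and 3.07% in ebf3+ cells. Shares in the wdr12+ sort were far above the rest, and those of the other sorts overlapped. NEUROD2 (1 of 2) held 26.9 ± 9.09% in wdr12+, 44.9 ± 0.283% in wdr12- and 65.2 ± 2.39% in ebf3+ cells (SD). The neurod4 share of wdr12+ replicate 3 had a 95% exact binomial interval of 29.96% to 34.1%, below that of replicate 1, which ran from 55.4% to 59.3%.

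**Figure D3:**
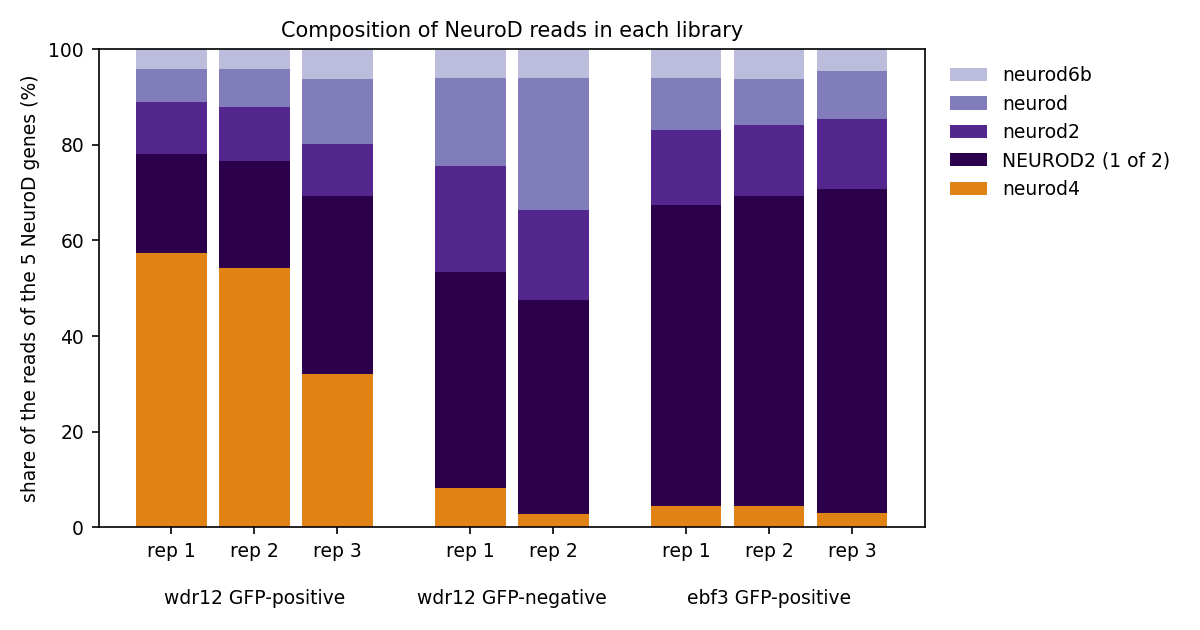
Share of the reads of the 5 NeuroD genes taken by each gene (%), 1 stacked bar per library, with wdr12+ left, wdr12- in the middle and ebf3+ right. Reads are not corrected for gene length. neurod4 (orange, bottom) holds 32.0% to 57.4% in wdr12+ libraries and at most 8.25% elsewhere.

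The log2 ratio of neurod4 to NEUROD2 (1 of 2), with 0.5 CPM added to each, put the same contrast in a single number per library. It was 1.46, 1.26 and -0.22 in wdr12+ cells, -2.40 and -3.89 in wdr12- cells, and -3.82, -3.87 and -4.45 in ebf3+ cells. The means were 0.83 ± 0.92, -3.15 ± 1.05 and -4.05 ± 0.35 (SD). The wdr12+ libraries lay above all others, and wdr12- replicate 2 lay within the ebf3+ range. Since the genes were paired for their opposite patterns, the ratio is a description.

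The wdr12+ libraries were not alike. Replicate 3 had the lowest neurod4 and the highest NEUROD2 (1 of 2), and of the other NeuroD genes neurod and neurod6b were also highest there. The 27 measured genes of the mature neuron and synapse list summed to 1343 CPM in that library, against 537 and 584 CPM in replicates 1 and 2. The 36 cell cycle genes summed to 7190 CPM in it, against 15491 and 9174 CPM in the same replicates. The part of these differences in the NeuroD values was not tested. Without replicate 3 the log2 ratio of the wdr12+ sort was 1.36, the highest of its range when single libraries were left out.

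Markers of other cell types also moved with the sorts. The 7 erythrocyte genes summed to 26862 and 135872 CPM in wdr12- libraries, against 455 to 1048 CPM in wdr12+ and 836 to 1125 CPM in ebf3+ libraries. With library sizes computed without globin genes, the neurod4 difference between the sorts of the wdr12 line was the same, at 3.65. That run changes only the scaling, so it cannot show what part erythrocytes had in the neurod4 level. The 9 oligodendrocyte genes summed to 876 to 1584 CPM in wdr12+, 3471 to 4838 CPM in wdr12- and 211 to 928 CPM in ebf3+ libraries. Not every gene followed that sum: cnp and nkx2.2a were highest in every wdr12+ library. The median log2 fold change of the 9 genes in wdr12+ over wdr12- was -0.48. The 11 microglia and leukocyte genes summed to 861 to 1583, 948 to 1028 and 112 to 284 CPM in wdr12+, wdr12- and ebf3+ libraries. In at least 1 ebf3+ library c1qb and c1qc were each at 0. Here too single genes differed, with apoeb highest in every wdr12+ library and aif1l in every ebf3+ library. The 11 radial glia genes summed to 6815 to 14844, 8826 to 9020 and 3193 to 3343 CPM. Among them are the fatty acid binding protein genes FABP7 and fabp7a. Although the sums of the wdr12 line overlapped, slc1a3a, sox9b and FABP7 were highest in every wdr12+ library. These are 3 of 11 genes, beside 14.1% of all genes tested and 33.6% of those with a symbol. Against wdr12- cells 1 of the 11 rose and 1 fell in wdr12+ cells, and against ebf3+ cells 9 rose and 1 fell. The 5 endothelium and mural genes summed to 157 to 251, 94.6 to 103 and 101 to 103 CPM, with the sum highest in every wdr12+ library. Single genes of this list differed: cldn5a and pdgfrb were highest in every wdr12+ library, whereas cdh5 was highest in every ebf3+ library. The median log2 fold change of the 5 genes in wdr12+ over wdr12- was -0.20. The 2 measured photoreceptor and pineal genes summed to 394 to 523, 150.3 to 229 and 256 to 312 CPM, without overlap and in the order of neurod4. Nearly all of that sum was otx2, a homeobox gene also of the midbrain, with 522, 396 and 389.9 CPM in wdr12+, 138 and 209 CPM in wdr12-, and 310.5, 284 and 254 CPM in ebf3+ cells. The part of these cells in the NeuroD values was not tested.

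NeuroD factors work within a network of partners, inhibitors and Notch signals, and its measured genes were read beside them. Counts of calls are from edgeR's quasi-likelihood test at a Benjamini-Hochberg adjusted p under 0.05. Of all genes tested, 9.92% were higher and 9.84% lower in wdr12+ than in wdr12- cells, 12.7% higher and 10.8% lower in wdr12+ than in ebf3+ cells, and 3.16% higher and 1.96% lower in wdr12- than in ebf3+ cells. Among tested genes with a symbol, which are the only ones a list can hold, the shares were 29.9% and 30.7%, 37.9% and 31.8%, and 9.27% and 6.18%. Lists are read against the second set. A symbol means that the authors listed the gene as changed, so list counts leave out unlisted genes and are not independent evidence.

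Early proneural factors were hardly represented. Of that list, olig2 and olig4 had a symbol, and neurogenin, Ascl and Atoh genes are not analysed here. olig4, a bHLH factor of the dorsal neural tube, had 13.2, 8.54 and 5.28 CPM in wdr12+, 0.653 and 0 CPM in wdr12-, and 2.48, 4.15 and 2.5 CPM in ebf3+ cells. Its sorts fell in the order of neurod4 without overlap, as for 2.74% of all genes tested and 7.45% of those with a symbol. The levels were low, with 5.28 CPM in the lowest wdr12+ and 4.15 CPM in the highest ebf3+ library. In neither comparison with ebf3+ cells did olig4 pass. It rose in wdr12+ against wdr12- cells (adjusted p = 0.00685), with a size that is uncertain because a library was at 0, and it missed the threshold without GFP-negative replicate 2 (adjusted p = 0.0792). olig2, a factor of motor neuron and oligodendrocyte precursors, stood at 8.24 ± 0.972 CPM in wdr12+, 9.58 ± 2.48 CPM in wdr12- and 1.56 ± 0.619 CPM in ebf3+ cells (SD). It rose in wdr12+ against ebf3+ cells by log2 2.38 ± 0.58 (adjusted p = 0.00697) and did not pass between the sorts of the wdr12 line (log2 -0.22 ± 0.60, adjusted p = 0.872).

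The later bHLH factors likewise numbered 2. bhlhe23, a factor of neuronal differentiation in the mouse retina, had 9.86, 5.42 and 6.69 CPM in wdr12+, 7.18 and 7.04 CPM in wdr12-, and 26.7, 21.4 and 16.8 CPM in ebf3+ cells. Like NEUROD2 (1 of 2), it was above the rest in every ebf3+ library, and it fell in wdr12+ against ebf3+ cells (log2 -1.56 ± 0.41, adjusted p = 0.011, and 0.0601 without ebf3+ replicate 1). npas4a, induced by activity in neurons, averaged 5.39 ± 4.59 CPM in wdr12+, 47.0 ± 8.24 CPM in wdr12- and 12.2 ± 10.6 CPM in ebf3+ cells (SD). It fell in wdr12+ against wdr12- cells (log2 -3.13 ± 0.84, adjusted p = 0.015, and up to 0.0951 without a GFP-negative library).

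The E proteins, the DNA-binding partners of NeuroD factors, split between wdr12+ and ebf3+ cells. Of the 2 measured genes, 1 rose and 0 fell in wdr12+ against wdr12- cells, beside 29.9% and 30.7% of tested genes with a symbol. That call was not kept when each library was left out in turn. The median log2 fold change of the 2 genes was 1.02. tcf12 had 20.5, 28.8 and 34.2 CPM in wdr12+, 11.3 and 14.8 CPM in wdr12-, and 4.27, 10.6 and 16.6 CPM in ebf3+ cells. It rose in wdr12+ against ebf3+ cells (log2 1.41 ± 0.45, adjusted p = 0.0323), a call lost when any of 4 libraries was left out (adjusted p up to 0.119). tcf3a had 32.2, 39.7 and 50.3 CPM in wdr12+, 21.3 and 20.9 CPM in wdr12-, and 85.3, 94.4 and 76.9 CPM in ebf3+ cells. Its 3 sorts did not overlap. It fell in wdr12+ against ebf3+ cells (log2 -1.07 ± 0.28, adjusted p = 0.00943) and its lowest level was in the GFP-negative sort.

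Id and Hes inhibitors were mostly higher in the neuroepithelial sort. Of 12 measured genes, 9 rose and 1 fell in wdr12+ against wdr12- cells, beside 29.9% and 30.7% of tested genes with a symbol. The median log2 fold change was 2.55, beside 0.05 over all genes tested and 0.31 over those with a symbol. Of the 9, 6 also passed when any single library was left out, and the fall of id2a (log2 -1.14 ± 0.35, adjusted p = 0.0332) did not (adjusted p up to 0.315). Against ebf3+ cells 9 rose and 2 fell, beside 37.9% and 31.8% of tested genes with a symbol. The median was 2.54, and all these calls were kept with any library left out. id1, an inhibitor of E proteins kept on in neural stem cells, had 3884, 3601 and 2525 CPM in wdr12+, 168 and 245 CPM in wdr12-, and 211, 214 and 327 CPM in ebf3+ cells. It rose by log2 4.02 ± 0.41 (adjusted p = 5.12e-05) and 3.73 ± 0.34 (adjusted p = 1.04e-05) against the 2 sorts. her9, a Hes-related repressor, rose by log2 3.37 ± 0.45 (adjusted p = 0.000167) and 3.23 ± 0.38 (adjusted p = 3.09e-05).

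her13, a Hes-related gene, had 244, 171 and 112 CPM in wdr12+, 11.1 and 23.9 CPM in wdr12-, and 124, 64.7 and 66.9 CPM in ebf3+ cells. The sorts of the wdr12 line differed by log2 3.32 ± 0.48 (adjusted p = 0.00025), while wdr12+ and ebf3+ libraries overlapped (log2 1.04 ± 0.37, adjusted p = 0.0541). id2a, also an E protein inhibitor, had 138, 67.6 and 150 CPM in wdr12+, 213 and 309 CPM in wdr12-, and 1138, 1241 and 917 CPM in ebf3+ cells. It fell in wdr12+ against ebf3+ cells by 3.21 ± 0.35 on the log2 scale (adjusted p = 1.98e-05), and id4 fell by 1.94 ± 0.32 (adjusted p = 0.000373).

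Notch signalling lets differentiating cells hold back their neighbours. Of 31 symbols in the list, 9 were found among the genes the authors listed as changed, so the counts cover only such genes. All 9 rose in wdr12+ against wdr12- cells (median log2 2.77), beside 29.9% of tested genes with a symbol. Of these, 7 rose also when any single library was left out. Against ebf3+ cells 7 rose and 0 fell (median 2.34), beside 37.9% and 31.8%. All 7 rose also when any single library was left out. dlb, a Delta ligand, had 311, 238 and 159 CPM in wdr12+, 11.3 and 18.2 CPM in wdr12-, and 72.5, 38.4 and 48.6 CPM in ebf3+ cells. The receptor gene notch1a had 348, 393 and 251 CPM, 15.4 and 16 CPM, and 32.5, 33.7 and 53.1 CPM in the same sorts. Both had the non-overlapping order of neurod4, 2 of 9 genes beside 7.45% of genes with a symbol. That order is not particular to this network, since 15 of the 36 cell cycle genes (41.7%) also had it. dlb rose in wdr12+ cells by log2 3.99 ± 0.44 against wdr12- cells (adjusted p = 6.62e-05) and by 2.15 ± 0.34 against ebf3+ cells (adjusted p = 0.000273). DLL4 (1 of 2), another Delta ligand, and mib, a ubiquitin ligase needed for Delta signalling, did not pass between wdr12+ and ebf3+ cells (log2 -0.12 ± 0.40, adjusted p = 0.89, and 0.23 ± 0.28, adjusted p = 0.64).

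**Figure D4:**
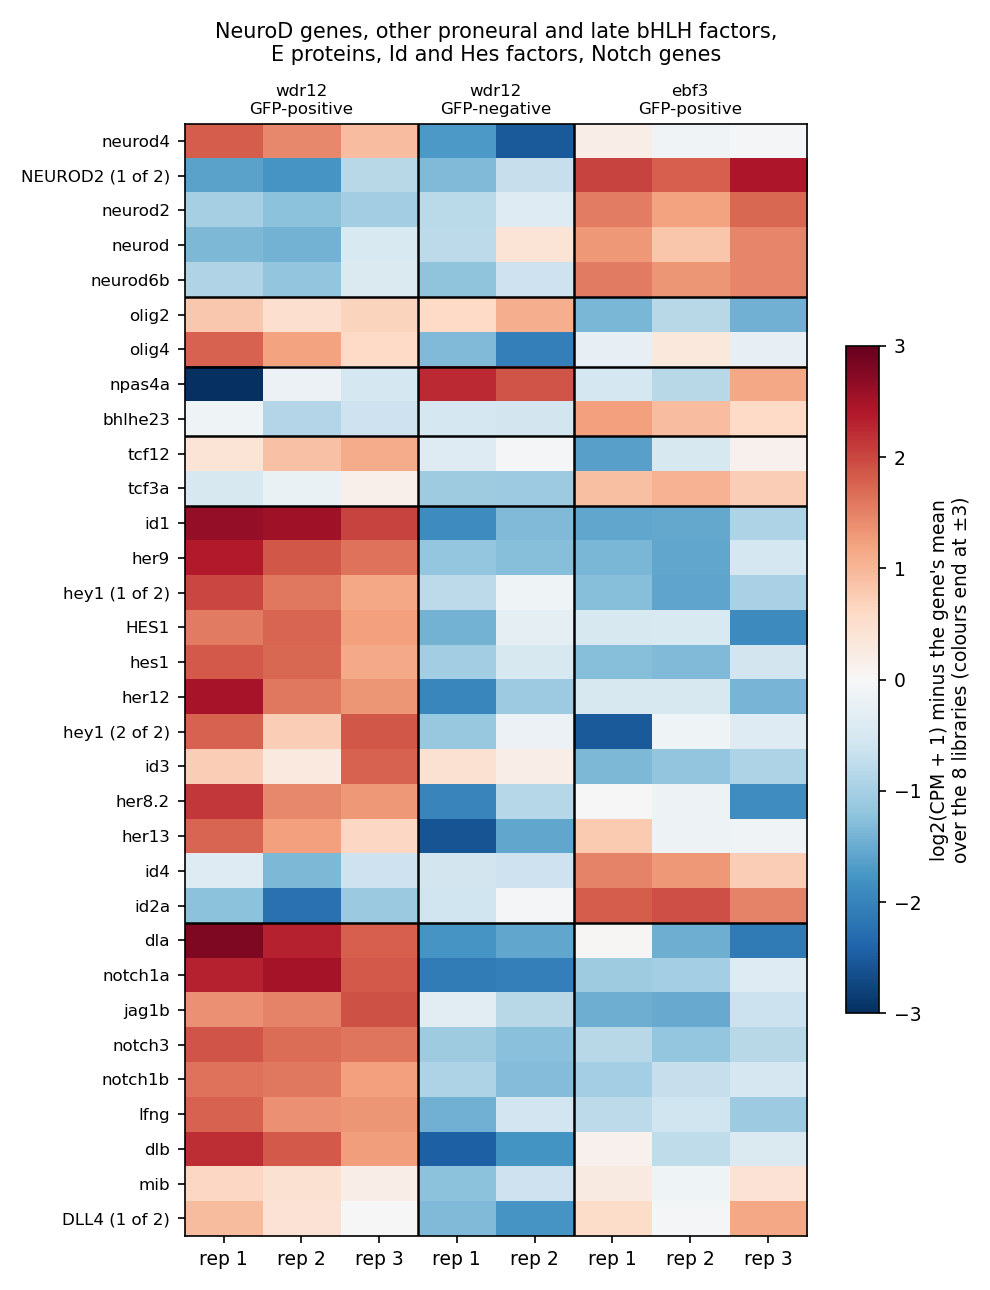
log2(CPM + 1) of each gene (rows) in each library (columns), less that gene's mean over the 8 libraries, with black lines between the NeuroD, early proneural, late bHLH, E protein, Id and Hes, and Notch lists and between the sorts. Red is above and blue below the mean. olig4, dlb and notch1a have the non-overlapping order of neurod4, an order of 7.45% of tested genes with a symbol. Among cell cycle genes, not drawn here, 15 of 36 have it. bhlhe23 and id4, like NEUROD2 (1 of 2), are highest in ebf3+ libraries with overlapping wdr12+ and wdr12- libraries.

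Genes of neuronal commitment were called in both directions between the sorts of the wdr12 line, near the shares of all genes with a symbol. Of 26 measured, 8 rose and 8 fell in wdr12+ against wdr12- cells. Among tested genes with a symbol 29.9% rose and 30.7% fell. Of the list's calls, 2 rises and 5 falls were kept when any single library was left out. Against ebf3+ cells 3 rose and 13 fell, beside 37.9% and 31.8% of genes with a symbol, with a median log2 of -1.31. In wdr12- against ebf3+ cells 0 rose and 12 fell, beside 9.27% and 6.18%. Of the 12, coe2 and tubb5 (2 of 2) fell also when any single library was left out. coe2, a gene of the same family as ebf3, had 51.5, 42.9 and 37.1 CPM in wdr12+, 12.2 and 9.10 CPM in wdr12-, and 76.3, 54.2 and 56.8 CPM in ebf3+ cells. It was lowest in the GFP-negative sort, but highest in ebf3+ cells. It rose in wdr12+ against wdr12- cells by log2 2.04 ± 0.36 (adjusted p = 0.000978) and did not pass against ebf3+ cells (log2 -0.51 ± 0.29, adjusted p = 0.244).

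lzts1, whose mouse counterpart takes part in the departure of newborn neurons from the neuroepithelium, averaged 81.4 ± 25.8 CPM in wdr12+, 9.26 ± 1.72 CPM in wdr12- and 52.5 ± 14.9 CPM in ebf3+ cells (SD). It rose in wdr12+ against wdr12- cells by log2 3.13 ± 0.42 (adjusted p = 0.000165). Like SOX11, myt1b and btg1, genes known for roles in neuronal commitment or cell cycle exit, it was under both GFP-positive sorts in every GFP-negative library. That pattern, with the GFP-positive sorts overlapping, was held by 5 of the 26 genes, beside 6.62% of all genes tested and 8.63% of those with a symbol. More of the list, 11 of the 26 genes, stood higher in every ebf3+ library than in any other, as NEUROD2 (1 of 2) did. Among them were ebf3 and coe2, and the shares were 6.46% of all genes tested and 12.3% of those with a symbol. SOX11 had 414, 302 and 304 CPM in wdr12+, 115 and 133 CPM in wdr12-, and 428, 441 and 411 CPM in ebf3+ cells. Its rise against wdr12- cells (log2 1.45 ± 0.30, adjusted p = 0.00335) missed the threshold without GFP-negative replicate 1 (adjusted p = 0.0658).

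EBF1 (2 of 2), a further gene of the Ebf family, had 29.7, 20.3 and 39.8 CPM in wdr12+, 29.6 and 52.7 CPM in wdr12-, and 196, 203 and 229 CPM in ebf3+ cells. It fell in wdr12+ against ebf3+ cells by 2.81 ± 0.33 on the log2 scale (adjusted p = 2.86e-05). ebf3 itself fell by 2.64 ± 0.33 (adjusted p = 4.66e-05), a difference that the choice of the line bears on. tubb5 (2 of 2), a tubulin gene, had 1978 ± 283 CPM in wdr12+, 1227 ± 386 CPM in wdr12- and 6379 ± 933 CPM in ebf3+ cells (SD).

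Genes of excitatory neurons, the class in which mouse Neurod2 and Neurod6 are best known, were mostly low in the wdr12+ sort. Of 28 measured, 1 rose and 22 fell against wdr12- cells (median log2 -2.35), and 0 rose and 22 fell against ebf3+ cells (median log2 -1.90). Among tested genes with a symbol 30.7% and 31.8% fell in these comparisons. In wdr12- against ebf3+ cells 0 rose and 5 fell, beside 9.27% and 6.18%, and the median was 0.34. Some of the falls in every comparison were lost when single libraries were left out. The vesicular glutamate transporter gene slc17a6b had 38.9, 35.1 and 67.0 CPM in wdr12+, 193 and 302 CPM in wdr12-, and 277, 389 and 293 CPM in ebf3+ cells. In wdr12- over ebf3+ its log2 fold change was -0.37 ± 0.35 (adjusted p = 0.669), beside -3.09 for NEUROD2 (1 of 2). By contrast slc17a6a, of the same list, stood higher in every ebf3+ library than in any library of the wdr12 line. That pattern was held by 8 of the 28 genes, beside 6.46% of all genes tested and 12.3% of those with a symbol.

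barhl1b, a homeobox gene of the same list, had 32.3, 25.4 and 27.5 CPM in wdr12+, 22.2 and 40.5 CPM in wdr12-, and 186, 142 and 217 CPM in ebf3+ cells. It fell by 2.68 ± 0.31 on the log2 scale in wdr12+ against ebf3+ cells (adjusted p = 2.79e-05) and by 2.53 ± 0.36 in wdr12- against ebf3+ cells (adjusted p = 0.00156). pou4f2, a factor of retinal ganglion and tectal projection neurons, had 193, 114 and 211 CPM, 441 and 522 CPM, and 2284, 2364 and 2286 CPM in the same sorts. It fell by 3.74 ± 0.32 in wdr12+ against ebf3+ cells (adjusted p = 9.5e-06). The gene of this list that rose against wdr12- cells was bcl11ab, a zinc finger factor, with 119, 124 and 80.3 CPM in wdr12+, 16.1 and 21.0 CPM in wdr12-, and 96.6, 57.4 and 61.4 CPM in ebf3+ cells (log2 2.54 ± 0.37, adjusted p = 0.000278).

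Inhibitory neuron genes were also counted. Of 10 measured, 1 rose and 7 fell in wdr12+ against wdr12- cells (median log2 -1.35). Among tested genes with a symbol 29.9% rose and 30.7% fell. Against ebf3+ cells 1 rose and 4 fell in wdr12+ cells (median log2 -0.67), beside 37.9% and 31.8%. The 4 falls were near the share of all genes with a symbol. Of the 7 and 4 falls, 4 and 1 were kept when each library was left out in turn. In wdr12- against ebf3+ cells 4 rose and 1 fell, beside 9.27% and 6.18%. gad1b, an enzyme gene of GABA synthesis, stood at 42.3 ± 32.6 CPM in wdr12+, 328 ± 34.2 CPM in wdr12- and 67.1 ± 17.7 CPM in ebf3+ cells (SD), and it rose in wdr12- against ebf3+ cells by log2 2.29 ± 0.46 (adjusted p = 0.0095). None of the rises in wdr12- against ebf3+ cells was kept when each library was left out in turn. Single genes of the list differed from gad1b. LHX1 was highest in every ebf3+ library with overlapping sorts of the wdr12 line, as NEUROD2 (1 of 2) was. That pattern was held by 3.38% of all genes tested and 4.25% of those with a symbol. tal2 was lowest in every wdr12- library, with overlapping GFP-positive sorts, a pattern of 6.62% and 8.63%. Mature neuron genes also fell in wdr12+ cells, 25 of 27 against wdr12- and 21 of 27 against ebf3+ cells, while 0 of 27 passed in either direction between wdr12- and ebf3+ cells. Some falls of mature neuron genes were lost in both comparisons when single libraries were left out.

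To find genes of like profile, Pearson r of log2(CPM + 1) was taken over the 8 libraries for 3356 named genes whose normalised counts averaged 100 or more. These r describe 8 libraries that fall into 3 sorts. The 6 genes nearest to neurod4 were nutf2 (r = 0.992), a nuclear transport factor, tmpob (0.991), a gene of nuclear lamina proteins, nsun5 (0.988), an RNA methyltransferase, plxnb1a (0.983), a semaphorin receptor, cx43.4 (0.979), a connexin, and dcps (0.979), an mRNA decapping enzyme. nutf2 had 137, 117 and 99.6 CPM in wdr12+, 48.3 and 39.2 CPM in wdr12-, and 75.9, 78.5 and 85.4 CPM in ebf3+ cells. cx43.4 averaged 33.7 ± 8.88, 3.46 ± 0.0329 and 14.3 ± 4.76 CPM (SD) in the same order. In all, 233 of the 3356 genes (6.94%) had an r over 0.9 with neurod4. All 3356 have a symbol, so the authors listed them as changed. The share is therefore not one of all genes tested.

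The 6 nearest to NEUROD2 (1 of 2) were EBF1 (2 of 2) (r = 0.993), casz1 (1 of 2) (0.992), a zinc finger factor, neurod6b (0.989), neurod2 (0.987), gaa (0.986), a lysosomal glucosidase, and foxb1b (0.985), a forkhead factor of the brain. Over 0.9 were 130 of the same 3356 genes (3.87%). casz1 (1 of 2) had 15.5, 15.8 and 21.0 CPM in wdr12+, 22.6 and 22.7 CPM in wdr12-, and 162, 122 and 184 CPM in ebf3+ cells. foxb1b had 19.3, 15.6 and 24.1 CPM, 28.3 and 40.5 CPM, and 186, 112 and 212 CPM in the same sorts. neurod ranked 57th (r = 0.944). Between neurod4 and NEUROD2 (1 of 2) r was -0.11, and between neurod4 and the other NeuroD genes it ran from -0.37 to -0.0031. The names depend on the measure: by Spearman rho 0 of the 6 nearest to neurod4 and 1 of the 6 nearest to NEUROD2 (1 of 2) were still among the first 6, and without wdr12- replicate 2 it was 0 for neurod4.

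**Figure D5:**
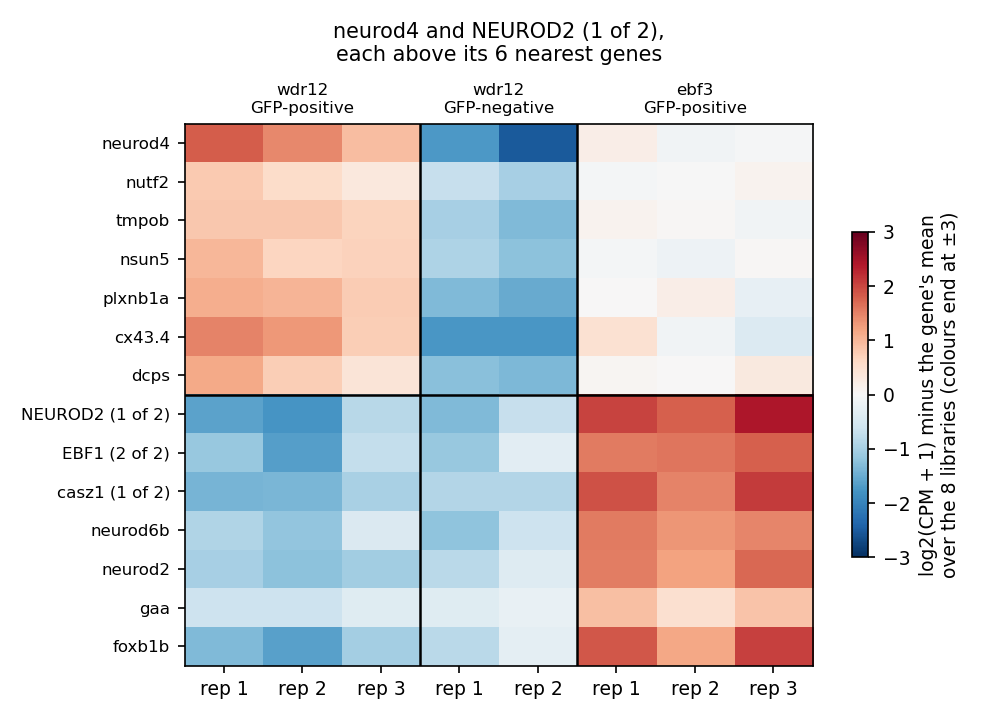
log2(CPM + 1) less each gene's mean over the 8 libraries, for neurod4 above its 6 nearest genes and NEUROD2 (1 of 2) above its own 6 (rows), in every library (columns), with lines between sorts. The upper block is red in wdr12+, blue in wdr12- and pale in ebf3+ libraries; the lower block is red in ebf3+ libraries and blue in most others.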

How the data were processed

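The read counts per gene and library are whole numbers in the authors' deposited tables; per the submitters' processing notes CASAVA 1.8.2, FastQC 0.10.1, TopHat2 and DESeq were used. Genome build, annotation and counting program were not stated in what was used here. The deposited tables also give the authors' log2 fold change and p-value per gene. They hold a score of unstated meaning too, deposited by the authors, which was not used. Signs differ between the authors' sheets and full tables for comparisons with ebf3, and the full tables' direction was used. Of 17142 genes, 16957 present in all 3 count tables, which together cover the 8 libraries, were kept. Symbols come from the authors' sheets only, for 4662 of 5043 listed genes.

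Counts were fitted with edgeR 4.0.16 in R 4.3.3 (TMM, filterByExpr, 1 fit of 3 groups, 15640 genes tested). Tests were two-sided quasi-likelihood tests with Benjamini-Hochberg adjustment, called at an adjusted p under 0.05. SE is the fold change over the square root of F. The common biological coefficient of variation was 0.514. DESeq2 1.42.0 was an alternative. Single shares carry exact binomial intervals (95%).

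The genes, the lists and the tests were chosen with earlier results of these data known; the reading of neurod as neurod1 was added after the files were seen. The rule for naming covers both NeuroD genes, all measured NeuroD, proneural, late bHLH and E protein genes, and wdr12 and ebf3. It also covers up to 4 called genes with the smallest adjusted p per other list and comparison. Called genes against their list's direction are covered too, as are the 6 genes of highest r for neurod4 and NEUROD2 (1 of 2). Not all of these are printed here, and the neural progenitor list is not reported. Outside this rule, myt1b, btg1, SOX11, tubb5 (2 of 2), DLL4 (1 of 2), mib, FABP7, fabp7a, c1qb and c1qc were named after their values were seen. The genes slc17a6a, cldn5a, pdgfrb, cdh5, cnp, nkx2.2a, apoeb, aif1l, LHX1, tal2, slc1a3a and sox9b were also named after their values were seen.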

Additional observations from a re-analysis of the deposited data

How the results depend on the processing

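The fold changes of neurod4 and NEUROD2 (1 of 2) kept their direction under every alternative run: other size factors, no low-count filter, a fit of only 2 groups, DESeq2, no globin genes, a replicate block and each library left out. With single libraries left out, neurod4 ran from 3.26 to 4.16 in wdr12+ over wdr12- and from -2.71 to -1.81 in wdr12- over ebf3+ cells. Few neurod4 reads, 38 and 56, limit its values in the GFP-negative sort. NEUROD2 (1 of 2) between the sorts of the wdr12 line ran from -0.76 to -0.01.

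The counts of calls over all genes moved more. With single libraries left out, between wdr12+ and wdr12- cells genes called higher ran from 557 to 1752 and lower from 785 to 1832, and the NeuroD, proneural, commitment and excitatory lists together had 7 to 12 higher. Between wdr12- and ebf3+ cells higher calls ran from 133 to 753, lower from 25 to 576, and those lists had 0 to 4 higher and 6 to 23 lower. With only those 2 groups in the fit the calls were 852 higher and 753 lower, and 8 higher in the lists; DESeq2 gave 793 and 701. The cause was not tested.

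Deviations from group means of same-numbered libraries correlated at 0.22, -0.14 and 0.01 between the GFP-positive sorts and at -0.18 and -0.22 within the wdr12 line. In groups of 2 or 3 libraries such deviations are tied to each other. These values therefore cannot decide whether replicate numbers pair the libraries, and the labels do not say. With the replicate block, wdr12- over ebf3+ had 819 higher calls and 3 in the lists, and NEUROD2 (1 of 2) stood at -0.64 between the sorts of the wdr12 line. neurod passed there with the block (-1.21, adjusted p = 0.0404). neurod6b between those sorts reversed, to -0.060 with the block, -0.22 to 0.42 with single libraries left out, at -0.22 without wdr12+ replicate 3 and -0.20 without wdr12- replicate 1. By Spearman rho 0 and 1 of the 6 nearest genes remained.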
